A study of Mus musculus with 10 samples.

Results

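The genes described here encode 9 enzymes of serine synthesis and of the folate one-carbon cycle. They are Phgdh, Psat1, Psph, Shmt1, Shmt2, Mthfd1, Mthfd2, Mthfd1l and Aldh1l2, chosen by name for their role in the pathway, out of the 20206 genes in the table. Each symbol matched 1 row, and the values of these rows were not identical to those of another gene. RNA sequencing was done on mouse embryonic stem cell (ESC) lines, which are self-renewing cells grown from the inner cell mass of blastocysts. The blastocysts came from C57BL/6 mothers aged 7 to 9 weeks that were fed either a low protein diet (LPD, 9% casein) or a normal protein diet (NPD, 18% casein) from the morning after mating until embryonic day 3.5. All lines were Wild-type C57Bl/6 and labelled male, and according to the methods of the study each came from a different mother, was derived on mouse fibroblasts and was grown without them before RNA was extracted. There were 5 LPD lines, numbered 1, 4, 6, 20 and 40, and 5 NPD lines, numbered 8, 15, 21, 36 and 51. Only the mothers differed in diet, since the lines of both groups were grown in the same medium, which contains non-essential amino acids and glutamine.

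Serine is made from the glycolytic intermediate 3-phosphoglycerate. Phgdh oxidises it, Psat1 adds an amino group and Psph removes the phosphate. Serine hydroxymethyltransferases then pass a carbon from serine to tetrahydrofolate and leave glycine, Shmt1 in the cytosol and nucleus and Shmt2 in mitochondria. In mitochondria the carbon is oxidised by Mthfd2, released as formate by Mthfd1l, or lost as carbon dioxide through Aldh1l2. Formate leaves the mitochondria and is taken up by Mthfd1 in the cytosol, where one-carbon units are used for purines, thymidylate and the remethylation of homocysteine. ESCs divide fast and draw heavily on this supply. Several of these genes are known targets of Atf4, the transcription factor of the integrated stress response, which is itself controlled mainly through translation of its mRNA.

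The promoters of the 4 enzyme genes with a limma p under 0.05 between the diets are shown first, since the values below turn on these genes. Each run is the 150 bases before the RefSeq start of the gene on GRCm38.p6, read 5′ to 3′ on the strand of the gene, and all 4 genes lie on the minus strand. Capitals mark the CCAAT box (CCAAT) and the GC box (GGGCGG) on either strand, so that ATTGG and CCGCCC are the reverse strand of each.
Phgdh, chr3:98339970-98340119: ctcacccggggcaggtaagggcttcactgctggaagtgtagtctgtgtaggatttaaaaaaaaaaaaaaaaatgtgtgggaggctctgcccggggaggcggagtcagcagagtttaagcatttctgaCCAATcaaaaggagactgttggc
Psat1, chr19:15925060-15925209: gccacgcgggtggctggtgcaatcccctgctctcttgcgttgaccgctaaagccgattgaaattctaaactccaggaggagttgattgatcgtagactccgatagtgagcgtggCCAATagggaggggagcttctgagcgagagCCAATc
Psph, chr5:129787254-129787403: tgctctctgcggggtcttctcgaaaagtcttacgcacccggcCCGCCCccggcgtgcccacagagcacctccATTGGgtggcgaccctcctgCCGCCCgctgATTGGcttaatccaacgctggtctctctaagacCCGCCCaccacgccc
Mthfd2, chr6:83317605-83317754: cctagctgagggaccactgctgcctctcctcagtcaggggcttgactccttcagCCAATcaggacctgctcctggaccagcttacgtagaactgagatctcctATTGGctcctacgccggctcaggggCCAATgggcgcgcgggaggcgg

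Promoter entries of RefSeq were found for 8 of the 9 genes, and Psat1 had 2 entries, of which the upstream one is shown. The CCAAT box occurred once before Phgdh, 2 times before Psat1, 2 times before Psph and 3 times before Mthfd2. Shmt1 and Mthfd1 each held 1, while Shmt2 and Mthfd1l held 0. Of all 32851 promoter entries, 24.5% held a CCAAT box within the same 150 bases. The GC box occurred 3 times before Psph and 3 times before Shmt1, once before Mthfd1 and once before Mthfd1l, against 28.6% of all entries with at least 1. The TATA box (TATAAA, 7.57% of all entries) and the E-box (CACGTG, 4.30%), a sequence bound by Myc proteins among others, were not in these windows. The core of the composite C/EBP-ATF element, searched on both strands as TGATGNAA over the 250 bases before the start, was found in 0 of the 8 genes and in 3.45% of all entries. These counts describe letters in a window and not bound sites. The RefSeq start of Psph lies 196 bases downstream of the start of the principal transcript in GENCODE M21. All 150 bases shown for Psph, with their CCAAT and GC boxes, thus lie inside the gene and not before that start. The other printed starts lie within 21 bases of the principal start.

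The values are normalized estimated counts per gene, as the authors deposited them, and the value of a line is given below as its normalized value. From the low values, the relative depth was 20383257 to 23185581 read equivalents in the NPD lines and 5843734 to 24212238 in the LPD lines, with LPD line 4 the shallowest, followed by LPD lines 40 and 6. Even so, the 8 enzyme genes other than Aldh1l2 had between 539 and 3382 read equivalents each in LPD line 4. The summed value of 10 ESC markers, among them Pou5f1, Nanog and Sox2, was 104147 to 134495 in LPD and 97950 to 133362 in NPD lines, and 0 of them had a limma p under 0.05. The corresponding ranges were 13405 to 17944 and 12657 to 21630 for 12 fibroblast genes, of which Fn1 made up most. Without Fn1 they were 340 to 3473 and 431 to 6195. For 8 primitive endoderm genes they were 1712 to 11490 and 967 to 8728, and for 7 trophectoderm genes 3301 to 10338 and 3071 to 6224. In these lists, too, 0 of the genes tested had a limma p under 0.05. The median log2 fold change was -0.87 for the fibroblast, 0.44 for the primitive endoderm and 0.28 for the trophectoderm genes tested, against -0.0044 for the ESC markers. The exact permutation p of the summed values between the diets was 0.508 for the fibroblast genes with Fn1. It was 0.484 for the primitive endoderm and 0.738 for the trophectoderm genes. Fibroblast genes stood out in 3 lines. The collagen gene Col1a1 had a normalized value of 1704 in LPD line 6, 1016 in NPD line 8 and 2709 in NPD line 15, and 131 to 534 in the other lines. Lum and Dcn, which define fibroblasts, reached 111 and 33.5 in NPD line 15, and Dcn 15.7 in LPD line 6. In NPD line 8 both were 0, and Col6a1 (19.4) and Col6a2 (26.3) were within the range of other lines. That line stood out in Col1a1, Col1a2 (754) and Col3a1 (135). In Pdgfrb (57.0), Postn (16.1) and S100a4 (15.7), too, it was above all lines but LPD line 6 and NPD line 15. It therefore stood out in several but not all fibroblast genes. The part of trophectoderm and primitive endoderm genes in the results was not tested, and values without the 3 lines are given below. The summed value of 4 Y-linked genes was 701 in LPD line 4 and 152 in NPD line 15, far below the 8 other lines although all carry the label male, so the results below were also computed without these 2 lines. In bulk samples, fewer cells of a type and less RNA per cell cannot be told apart.

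The 10 lines were compared by diet with limma on log2(value + 1), keeping the 14354 genes whose mean over the lines was 10 or more. A positive log2 fold change means a higher value in LPD lines on this scale, and it is given with its standard error (SE). After Benjamini-Hochberg adjustment a p under 0.1 was reached by 0% of all genes tested and by 0 of the 9 enzyme genes, whose adjusted p ranged from 0.551 to 0.997. At an unadjusted p under 0.05, 4 of the 9 enzyme genes, Phgdh, Psat1, Psph and Mthfd2, had higher values in LPD lines, where 2.84% of all genes tested were higher. In the other direction there were 0 enzyme genes, against 2.18% of all genes. The log2 fold change was positive for 7 of the 9, against 50.5% of all genes tested, and that of Mthfd1 among them was only 0.0045. The median over the 9 was 0.18, beside 0.00 over all genes tested. The diets did not overlap, with LPD on top, for 1 of the 9, Phgdh, and for 0.523% of all genes tested. The reverse held for 0 of the 9 and for 0.495% of all genes. The exact permutation p given below for single genes is two-sided over all assignments of 5 and 5 lines, and cannot go below 0.00794.

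**Figure D1:**
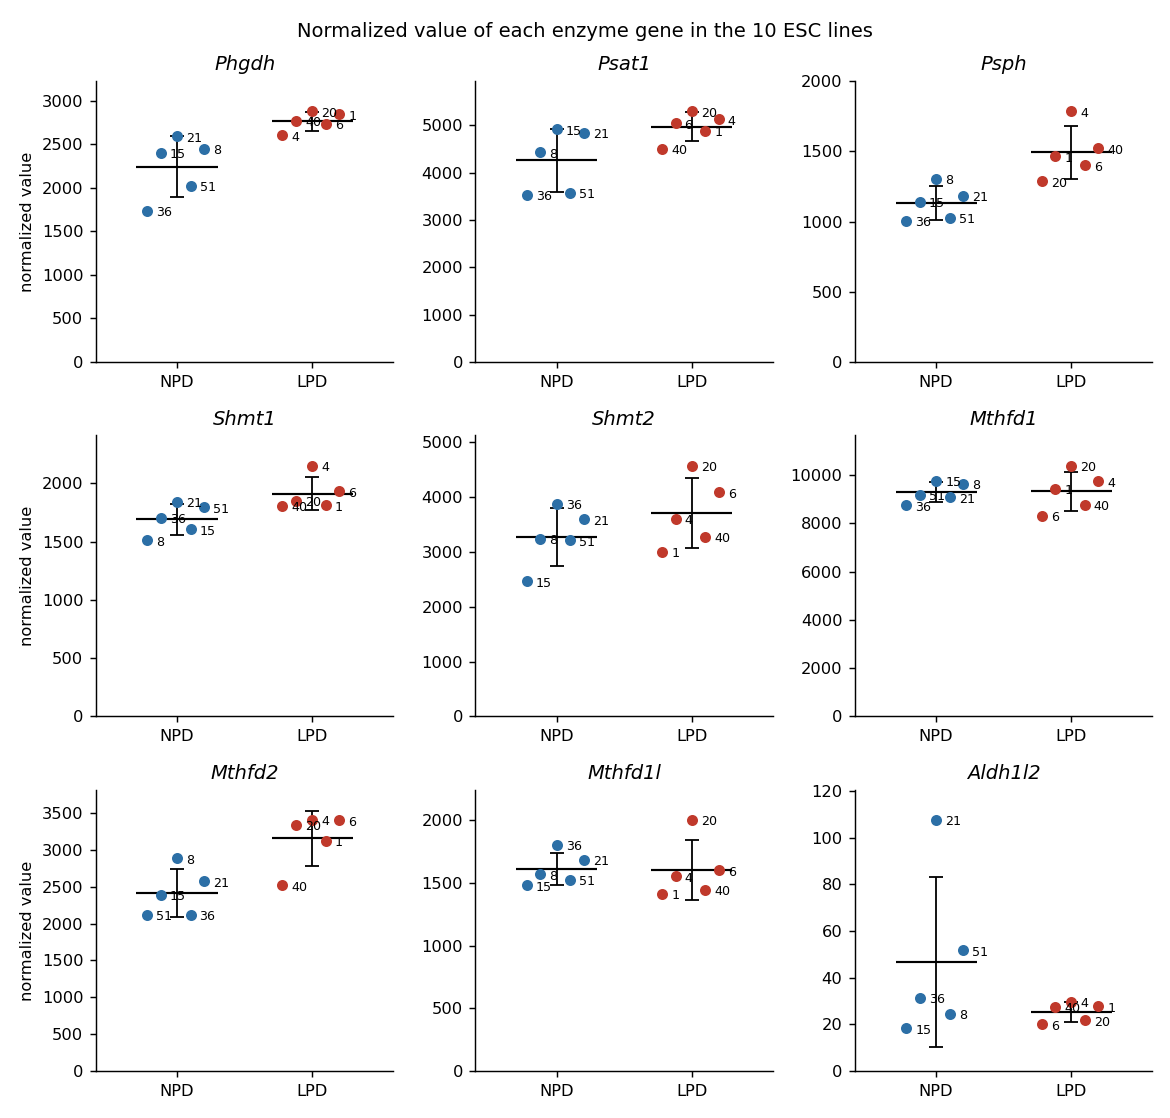
Normalized value (y axes, from 0) of each of the 9 enzyme genes in the 5 NPD lines (blue) and the 5 LPD lines (red). Points carry the line number, horizontal bars are the mean and error bars the SD. The groups are apart in Phgdh, 4 LPD lines lie above all NPD lines in Psph and Mthfd2, and the groups overlap widely in Mthfd1 and Mthfd1l.

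Serine synthesis was represented by 3 enzymes, all with higher mean values in LPD lines. Phgdh, the first and committing enzyme of the branch from glycolysis, is on chromosome 3 at 98313170 to 98339990 (GRCm38, minus strand). Its normalized value was 2844, 2600.5, 2737, 2879.9 and 2769.5 in LPD lines 1, 4, 6, 20 and 40, and 2448, 2399, 2593, 1736 and 2025 in NPD lines 8, 15, 21, 36 and 51. The LPD lines were close together and all above the NPD lines, although the lowest of them, line 4, exceeded NPD line 21 only narrowly. The spread lay mainly in NPD, where lines 36 and 51 were low. The means were 2766 ± 109 in LPD and 2240.3 ± 351 in NPD (SD, n = 5 each), a log2 fold change of 0.32 (SE 0.11). The limma p was 0.0108, the adjusted p 0.839 and the exact permutation p 0.00794, the smallest possible. Leaving out each line in turn gave log2 fold changes between 0.23, without NPD line 36, and 0.37.

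Psat1 encodes the aminotransferase of the second step, which takes its amino group from glutamate. It lies on chromosome 19 at 15904678 to 15947337 (minus strand). The lines had normalized values of 4883, 5122, 5042, 5299 and 4507 in LPD lines 1, 4, 6, 20 and 40, and 4433, 4912, 4842, 3527 and 3575 in NPD lines 8, 15, 21, 36 and 51. Here 3 LPD lines were above all NPD lines, while LPD line 40 and LPD line 1 were below NPD line 15. NPD lines 36 and 51 were again the lowest. The means were 4970.4 ± 299 and 4258 ± 671 (SD, n = 5 each), with a log2 fold change of 0.24 (SE 0.11), a limma p of 0.0471, an adjusted p of 0.987 and an exact permutation p of 0.0556. The limma p and the exact permutation p thus fell on either side of 0.05. Without NPD line 36 the log2 fold change was 0.17 (limma p = 0.129, exact permutation p = 0.111), and after rescaling all lines to the same total it was 0.20 (limma p = 0.0766, exact permutation p = 0.119).

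Psph, the phosphatase that releases serine, is on chromosome 5 at 129765558 to 129787449 (minus strand). Normalized values of Psph were 1466, 1787, 1402, 1286 and 1523 in LPD lines 1, 4, 6, 20 and 40, and 1303, 1139, 1182, 1004 and 1026 in NPD lines 8, 15, 21, 36 and 51. The groups overlapped by 1 pair of lines, LPD line 20 and NPD line 8. LPD line 4 was the highest, and NPD lines 36 and 51 were the lowest here as well. The means were 1493 ± 186 in LPD and 1131 ± 122 in NPD lines (SD, n = 5 each), which gave a log2 fold change of 0.40 (SE 0.11). The limma p was 0.00256, the adjusted p 0.551 and the exact permutation p 0.0159. With single lines left out the log2 fold change was between 0.33 without LPD line 4 and 0.45 without NPD line 8.

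In the mitochondrial arm of the folate cycle, Mthfd2 was higher in LPD lines at an unadjusted limma p under 0.05, while Shmt2, Mthfd1l and Aldh1l2 did not pass that threshold. Mthfd2 encodes the methylenetetrahydrofolate dehydrogenase and cyclohydrolase of mitochondria, typical of embryonic and dividing cells, and lies on chromosome 6 at 83305691 to 83325908 (minus strand). For Mthfd2 the normalized value was 3126, 3407, 3402, 3347 and 2524 in LPD lines 1, 4, 6, 20 and 40, and 2886, 2394, 2577, 2124 and 2118 in NPD lines 8, 15, 21, 36 and 51. LPD lines other than 40 were above all NPD lines, and LPD line 40 was below NPD lines 8 and 21. The means were 3161 ± 374 and 2419.7 ± 324 (SD, n = 5 each), a log2 fold change of 0.39 (SE 0.11). The limma p was 0.00452, the adjusted p 0.665 and the exact permutation p 0.0238. With LPD line 40 left out the log2 fold change was 0.47, and the lowest value in leaving out single lines was 0.34.

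Shmt2, the mitochondrial hydroxymethyltransferase that starts this arm, is on chromosome 10 at 127517123 to 127522444 (minus strand). Among the lines the normalized value of Shmt2 was 2994, 3598, 4084, 4568 and 3267 in LPD lines 1, 4, 6, 20 and 40, and 3238, 2463, 3591, 3873 and 3209 in NPD lines 8, 15, 21, 36 and 51. The lines were spread widely in both diets, from NPD line 15 to LPD line 20. NPD line 36, low in the serine synthesis genes, was the highest NPD line here. Between the diets the log2 fold change was 0.18 (SE 0.14, limma p = 0.223, adjusted p = 0.994, exact permutation p = 0.302), and 0.08 without NPD line 15.

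Mthfd1l, the mitochondrial synthetase that releases formate, is on chromosome 10 at 3973118 to 4167081 (plus strand). Its normalized value was 1413, 1552, 1603, 2002 and 1444 in LPD lines 1, 4, 6, 20 and 40, and 1569.9, 1482, 1683, 1804 and 1527 in NPD lines 8, 15, 21, 36 and 51. Both the highest value, in line 20, and the lowest, in line 1, were in LPD lines. The log2 fold change was -0.02 (SE 0.10, limma p = 0.873, exact permutation p = 0.873), and its sign depended on which line was left out, from -0.10 to 0.026.

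Aldh1l2, the mitochondrial 10-formyltetrahydrofolate dehydrogenase, is on chromosome 10 at 83487450 to 83534140 (minus strand) and was the only low gene of the 9, with about 10.3 read equivalents in LPD line 4. Across the lines its normalized value was 27.7, 29.6, 20, 21.7 and 27.4 in LPD lines 1, 4, 6, 20 and 40, and 24.6, 18.2, 108, 31.3 and 51.8 in NPD lines 8, 15, 21, 36 and 51. The LPD lines lay within the range of NPD, and NPD lines 21 and 51 stood above the rest. A log2 fold change of -0.59 was found (SE 0.42, limma p = 0.183, exact permutation p = 0.270), which was -0.22 without NPD line 21. Without LPD line 4 and NPD line 15 it was -0.90 (limma p = 0.0603, exact permutation p = 0.0857).

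Of the cytosolic folate enzymes, Shmt1 and Mthfd1, neither passed an unadjusted limma p of 0.05. Shmt1, the cytosolic hydroxymethyltransferase, is on chromosome 11 at 60788104 to 60811718 (minus strand). Shmt1 had normalized values of 1813, 2152, 1932, 1852 and 1808 in LPD lines 1, 4, 6, 20 and 40, and 1511, 1605, 1842, 1705 and 1794 in NPD lines 8, 15, 21, 36 and 51. LPD lines 4, 6 and 20 were above all NPD lines, and LPD lines 1 and 40 were below NPD line 21. The means were 1911 ± 143 and 1691 ± 135 (SD, n = 5 each), a log2 fold change of 0.18 (SE 0.08). The limma p of 0.0569 and the exact permutation p of 0.0317 fell on either side of 0.05, with an adjusted p of 0.994. Without LPD line 4 and NPD line 15, the lines with low Y-linked values, the log2 fold change was 0.12 (limma p = 0.246, exact permutation p = 0.114).

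Mthfd1, the trifunctional cytosolic enzyme that takes up formate, is on chromosome 12 at 76255298 to 76319803 (plus strand). Normalized values of Mthfd1 were 9431, 9745, 8323, 10399 and 8786 in LPD lines 1, 4, 6, 20 and 40, and 9633, 9779, 9081, 8761 and 9179.8 in NPD lines 8, 15, 21, 36 and 51. Both the lowest line, 6, and the highest, 20, were LPD lines. The means of 9337 ± 812 and 9287 ± 416 (SD, n = 5 each) gave a log2 fold change of 0.00 (SE 0.08, limma p = 0.956, exact permutation p = 0.960), whose sign turned under rescaling to the same total and under quantile normalization, to -0.030 and -0.032.

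**Figure D2:**
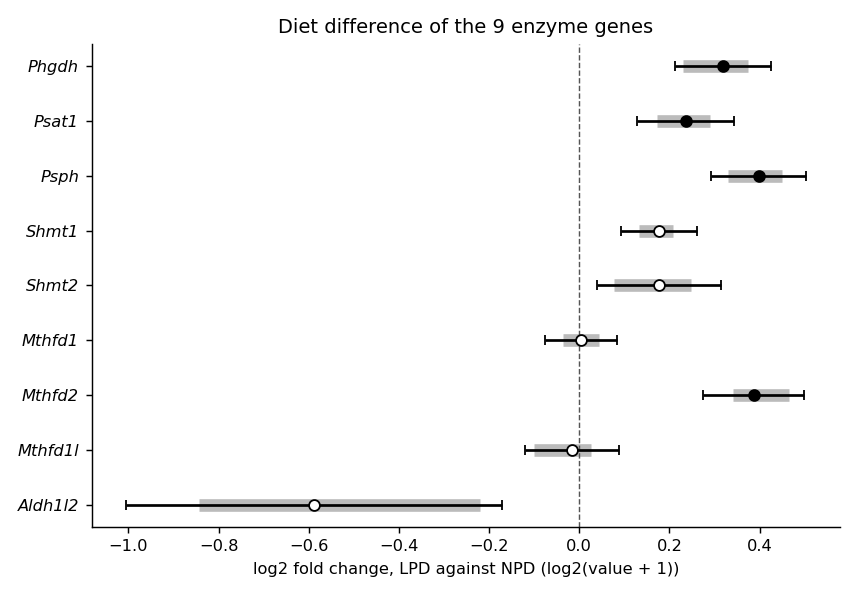
Log2 fold change of the 9 enzyme genes, LPD against NPD, on the log2(value + 1) scale (x axis). Points are limma estimates with error bars of 1 SE, filled where the unadjusted limma p is under 0.05, and grey bars span the values with each line left out in turn. Psph, Mthfd2, Phgdh and Psat1 are filled and lie between 0.24 and 0.40, and Aldh1l2 has the widest error.

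The 4 genes with a limma p under 0.05 shared their low lines. NPD lines 36 and 51 held the 2 lowest normalized values of the 10 lines in Phgdh, Psat1, Psph and Mthfd2, while LPD line 40 was the lowest LPD line in Psat1 and Mthfd2 but the second highest of all lines in Psph. Without LPD line 4 and NPD line 15, the log2 fold changes were 0.37 for Phgdh, 0.28 for Psat1, 0.34 for Psph and 0.36 for Mthfd2, with limma p of 0.0141, 0.0410, 0.0130 and 0.0232. The exact permutation p were 0.0286, 0.0571, 0.0571 and 0.0857 in the same order, where 4 lines against 4 cannot go below 0.0286. With depth as a covariate the log2 fold changes were 0.37, 0.25, 0.27 and 0.39 in the same order, with limma p of 0.0173, 0.0874, 0.0410 and 0.0192. Of these 4, Psat1 alone was not under 0.05 in that fit. Another alternative, chosen after seeing the data, left out LPD line 6 and NPD lines 8 and 15, the lines with the highest Col1a1 values. They were also the lowest lines in every listed primitive endoderm gene but Gata6. Lama1, for example, was at 1068, 1596 and 518 there and at 2915 to 7178 in the others. LPD line 6 also had the highest value of the trophectoderm gene Krt8, 4577 against 519 to 1282. Without the 3 lines the log2 fold changes were 0.41 for Phgdh (limma p = 0.0125, exact permutation p = 0.0286) and 0.33 for Psat1 (0.0298 and 0.0571). They were 0.49 for Psph (0.00342 and 0.0571) and 0.44 for Mthfd2 (0.00695 and 0.0857). These were as large as over all 10 lines. However, NPD lines 36 and 51, the lowest in these 4 genes, made up 2 of the 3 NPD lines left. The log2 fold change of Aldh1l2, which was lower in LPD, was -1.06 (limma p = 0.0269, exact permutation p = 0.0286). For Aldh1l2 the NPD lines left out, 8 (24.6) and 15 (18.2), were the 2 lowest of NPD. The part of fibroblast genes in these values was not tested. With 4 against 3 lines, 0.0286 is the smallest p the permutation test can give.

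**Figure D3:**
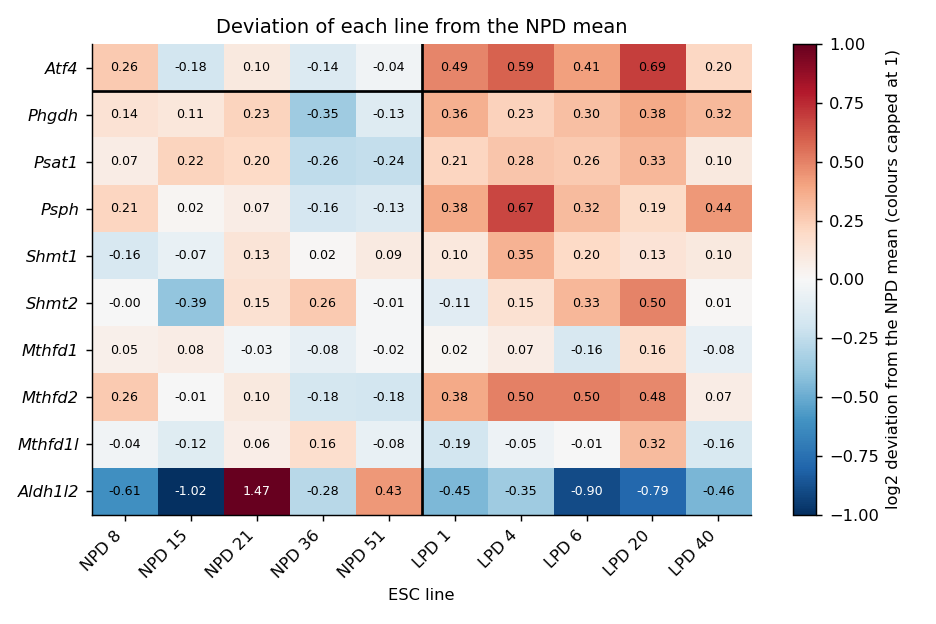
Log2 deviation of each line (x axis) from the mean of the NPD lines for Atf4 and the 9 enzyme genes (y axis), on the log2(value + 1) scale, with colours capped at 1. NPD lines 36 and 51 are blue in Phgdh, Psat1, Psph and Mthfd2, the LPD lines are red in those genes and in Atf4, and Mthfd1 is near 0 throughout.

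Levels can be compared between genes only per length. Per kilobase of the principal transcript, the mean normalized value over the 10 lines was highest for Mthfd1 (2873), followed by Psat1 (1763), Shmt2 (1524), Mthfd2 (1338) and Phgdh (1322). Psph (757), Shmt1 (630) and Mthfd1l (436) were lower, and Aldh1l2 was at 5.97. Mthfd2 and Phgdh, neighbours in this order, differed by less than the spread of either between lines. The paralogs that are typical of differentiated tissue were low per kilobase too, with 41.0 for Aldh1l1, the cytosolic counterpart of Aldh1l2, and 35 for Mthfd2l, the counterpart of Mthfd2. The diet difference was 0.06 for Aldh1l1 (SE 0.28, limma p = 0.835, exact permutation p = 0.865) and -0.22 for Mthfd2l (SE 0.23, limma p = 0.365, exact permutation p = 0.341), both log2 fold changes.

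The balance of the mitochondrial and cytosolic arms was described by differences of log2(value + 1) within a line, without a test. Shmt2 minus Shmt1 was 0.94 ± 0.25 in LPD and 0.94 ± 0.22 in NPD lines (SD, n = 5 each). Mthfd1l minus Mthfd1 was -2.55 ± 0.16 in LPD and -2.53 ± 0.17 in NPD lines. Thus both pairs had nearly the same mean difference in the 2 diets. Mthfd2 minus Mthfd1 was -1.57 ± 0.19 in LPD and -1.95 ± 0.16 in NPD lines, 0.38 higher in LPD, with 4 of 5 LPD lines above all NPD lines. Aldh1l2 minus Aldh1l1 was -2.68 ± 0.51 and -2.04 ± 1.19, with overlapping lines.

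Atf4 (chromosome 15, 80255184 to 80257541, plus strand) had a normalized value of 7444, 8006, 7058, 8594 and 6125 in LPD lines 1, 4, 6, 20 and 40, and 6376, 4678, 5681, 4841 and 5178 in NPD lines 8, 15, 21, 36 and 51. LPD lines other than 40 were above all NPD lines. The log2 fold change was 0.48 (SE 0.11), with a limma p of 0.000908, an adjusted p of 0.435 and an exact permutation p of 0.0159. Without LPD line 4 and NPD line 15 it was 0.40 (limma p = 0.00897, exact permutation p = 0.0571). Over the 10 lines the log2 level of Mthfd2 followed that of Atf4 most closely of the 9 genes, with Pearson r = 0.92 (permutation p = 4.1e-04, adjusted over 9 relations p = 0.00369) and Spearman rho = 0.88 (permutation p = 0.00165, adjusted p = 0.0148). Without LPD line 20 and NPD line 15, the 2 lines farthest from the median of Atf4, r was 0.96, and it was 0.81 on values centred within each diet.

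The serine synthesis genes followed Atf4 less closely. Phgdh had r = 0.74 (permutation p = 0.0101, adjusted p = 0.0384) and rho = 0.82 (permutation p = 0.00630, adjusted p = 0.0283). Psph had r = 0.75 (permutation p = 0.0128, adjusted p = 0.0384) and rho = 0.71 (permutation p = 0.0271, adjusted p = 0.0695). Psat1 had r = 0.67 (permutation p = 0.0320, adjusted p = 0.0719) and rho = 0.67 (permutation p = 0.0394, adjusted p = 0.0709). Without the same 2 lines r was 0.80, 0.92 and 0.87 for Phgdh, Psph and Psat1. Centred within diet it was 0.37, 0.28 and 0.40, lower in each case than over all lines. The permutations ran over all lines without regard to diet. Their p therefore does not test a relation with Atf4 apart from the diet difference. Under rescaling to the same total the adjusted permutation p was 0.0504 for both Phgdh and Psph. Without LPD line 4 and NPD line 15 it was 0.0147 for Phgdh and for Psat1 and 0.129 for Psph.

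For the other 5 genes the adjusted permutation p of r was above 0.05, as it was for Psat1. Pearson r with Atf4 was 0.57 for Shmt1 (permutation p = 0.0835, adjusted p = 0.15), with rho = 0.70 (permutation p = 0.0309, adjusted p = 0.0695). It was 0.53 for Shmt2 (permutation p = 0.118, adjusted p = 0.177) with rho = 0.47 (permutation p = 0.177, adjusted p = 0.266), and 0.35 for Mthfd1 (permutation p = 0.322, adjusted p = 0.413) with rho = 0.31 (permutation p = 0.387, adjusted p = 0.497). For Mthfd1l r was 0.20 (permutation p = 0.594, adjusted p = 0.594) with rho = 0.13 (permutation p = 0.733, adjusted p = 0.733), and for Aldh1l2 it was -0.26 (permutation p = 0.484, adjusted p = 0.544) with rho = -0.18 (permutation p = 0.633, adjusted p = 0.712). Without LPD line 20 and NPD line 15, r was 0.51 for Shmt1, -0.11 for Shmt2, 0.34 for Mthfd1, -0.55 for Mthfd1l and -0.46 for Aldh1l2, so the positive r of Shmt2 and Mthfd1l rested on those lines. In values centred within diet r was 0.05, 0.42, 0.58, 0.43 and 0.15 in the same order.

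**Figure D4:**
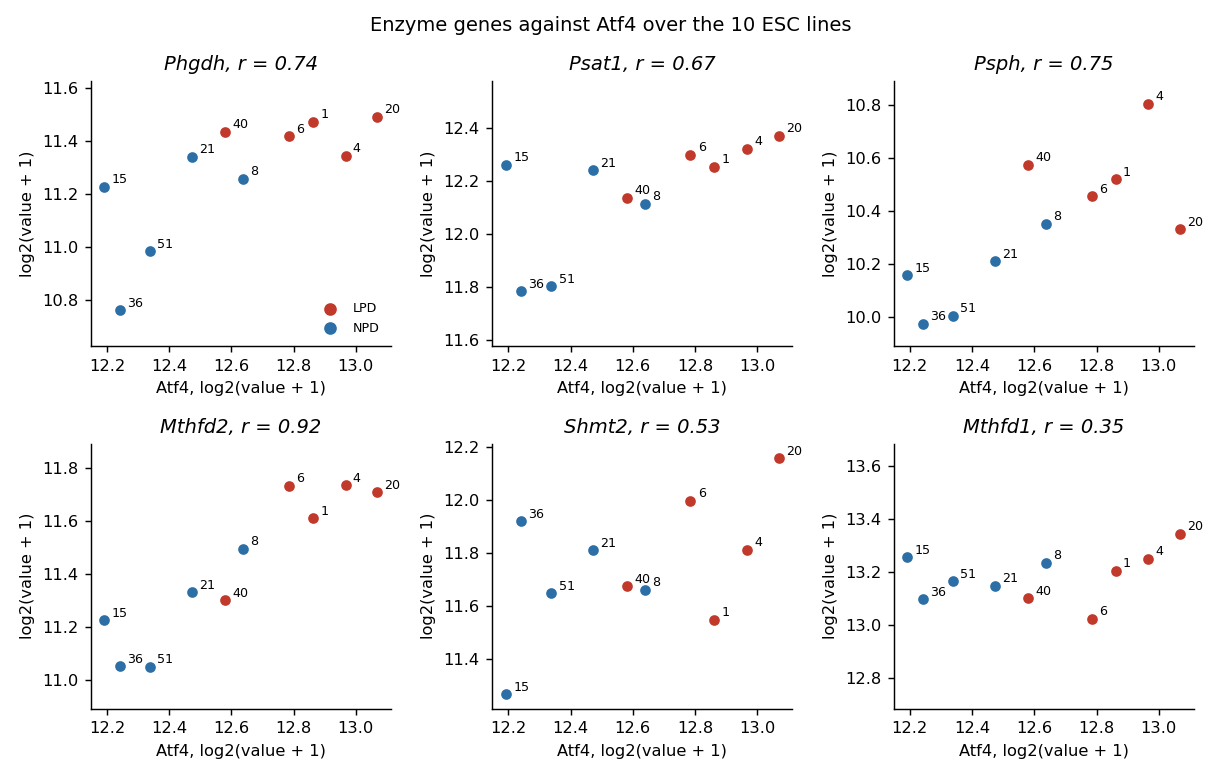
Log2(value + 1) of 6 enzyme genes (y axes, each spanning 1 unit) against that of Atf4 (x axes) in the 5 LPD (red) and 5 NPD (blue) lines, labelled by line number, with Pearson r over the 10 lines. Mthfd2 lies closest to a line (r = 0.92), NPD line 15 stands above the other low-Atf4 lines in Psat1, and Mthfd1 is nearly flat.

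The genes around these enzymes were taken from lists made by role. Of 18 other folate and one-carbon genes tested, such as the carriers and the enzymes of folate storage, 0 were higher and 0 lower at a limma p under 0.05, with a median log2 fold change of -0.03. The smallest p was that of Fpgs, which adds the glutamate tail that retains folate in cells (log2 fold change -0.22, SE 0.11, limma p = 0.0630, exact permutation p = 0.0556). In the methionine cycle 0 of 12 genes passed this threshold in either direction, with a median of -0.04. In purine and thymidylate synthesis, main consumers of these units, 0 of 18 genes did, with a median of -0.01. Of 13 carriers of serine and glycine 0 did, with a median of 0.01. The downstream users of one-carbon units thus had medians near the 0.00 of all genes.

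Of 15 genes that cleave glycine or use serine or glycine, 1 was higher and 0 lower at a limma p under 0.05, with a median log2 fold change of 0.10. This was Sptlc1, a subunit of the serine palmitoyltransferase that starts sphingolipid synthesis. Its normalized value was 852, 827, 878, 924 and 612 in LPD lines 1, 4, 6, 20 and 40, and 679, 655, 629.8, 727 and 693 in NPD lines 8, 15, 21, 36 and 51. LPD line 40 was below all NPD lines, and the other LPD lines were above them. This gave a log2 fold change of 0.26 (SE 0.11, limma p = 0.0404, adjusted p = 0.982, exact permutation p = 0.0476). The log2 fold change of Sptlc1 stayed positive in all 22 alternatives but had a limma p of 0.05 or more in 11 of them.

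Of 28 genes linked to Atf4 and the integrated stress response, 9 were higher and 0 lower at a limma p under 0.05. Of all genes tested, 2.84% were higher and 2.18% lower. The log2 fold change was positive for 23 of the 28, against 50.5% of all genes tested, and the median was 0.28. Atf4 itself is among the 9. This list was chosen with earlier results on Atf4 in these lines known, so its direction is not independent evidence. Atf3, a stress-induced transcription factor, had a log2 fold change of 2.03 (SE 0.38, limma p = 1.4e-04, adjusted p = 0.290, exact permutation p = 0.00794), with normalized values of 448, 401, 322, 196 and 94.9 in LPD lines 1, 4, 6, 20 and 40 and of 41.5 to 82.5 in the NPD lines. Every LPD line was above every NPD line for Atf3. Chac1, which degrades glutathione, had a log2 fold change of 1.09 (SE 0.29, limma p = 0.00233, adjusted p = 0.551, exact permutation p = 0.0238).

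Among amino acid genes of the same list, the arginine and lysine carrier Slc7a1 had a log2 fold change of 0.37 (SE 0.13, limma p = 0.0162, exact permutation p = 0.0476), and the carrier subunit Slc3a2 one of 0.32 (SE 0.12, limma p = 0.0225, exact permutation p = 0.0635). The leucine sensor Sesn2 had 0.38 (SE 0.14, limma p = 0.0172, exact permutation p = 0.0556). The other carriers of the list, Slc7a5, Slc7a11 and Slc7a3, had 0.15, 0.24 and -0.08, with limma p of 0.183, 0.601 and 0.641. Without LPD line 4 and NPD line 15, 4 genes of the list were higher at a limma p under 0.05, and the values of Slc7a1, Slc3a2 and Sesn2 were 0.29, 0.22 and 0.28 with limma p of 0.0814, 0.126 and 0.0945. Adjusted over all genes, the limma p of Slc7a1, Slc3a2 and Sesn2 was 0.852, 0.921 and 0.860.

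**Figure D5:**
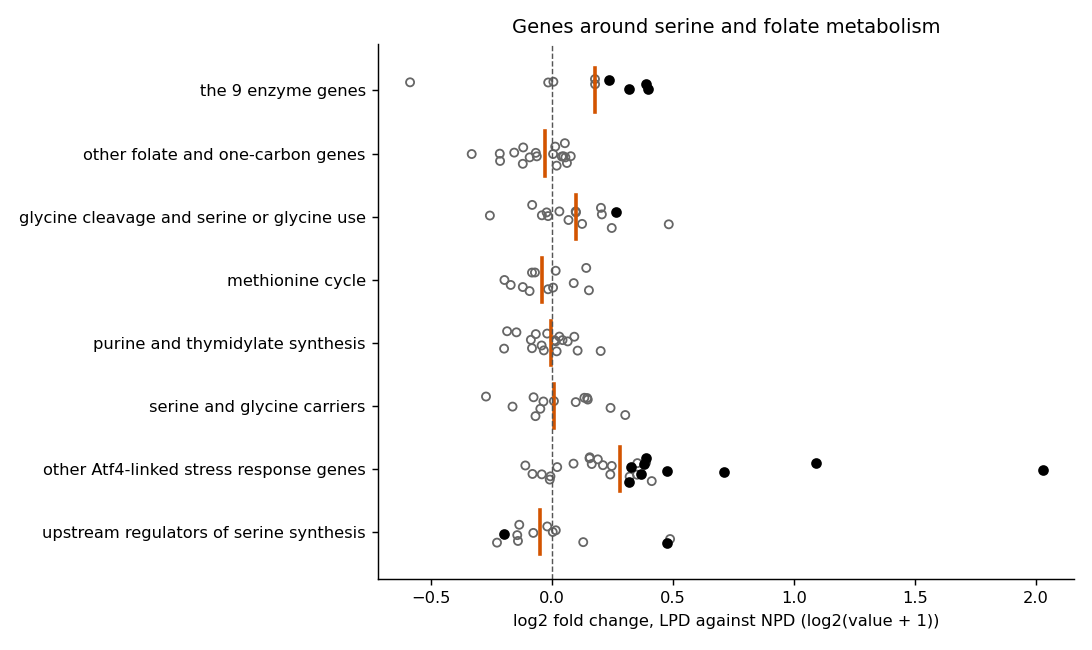
Log2 fold change, LPD against NPD on the log2(value + 1) scale (x axis), of the genes of each list (y axis). Circles are genes, filled where the unadjusted limma p is under 0.05, and orange bars are list medians. The median of the 9 enzyme genes is 0.18 and that of the Atf4-linked list 0.28, while the lists of other folate genes, the methionine cycle, purine synthesis and carriers have medians between -0.04 and 0.01.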

How the data were processed

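RNA sequencing of 10 mouse ESC lines, 5 LPD and 5 NPD, was re-analysed, with each line as 1 replicate. According to the methods, the authors quantified transcripts with Salmon on GRCm38 after adaptor trimming, which the submitters' processing notes credit to cutadapt, and tested transcripts with sleuth 0.30.0. The deposited table gives 1 normalized signal value for each gene and line, which is an estimated count and, by the name of the table, was normalized with DESeq2. The step from transcripts to genes is not given in the sources used here. Such values are not counts, so no count model was used. Of the 20206 genes, 19918 were matched to GENCODE M21 for positions and transcript lengths. Read equivalents are line totals over what 1 read was worth, estimated from low values of which at least 94.4% were whole multiples within 0.15. They are therefore estimates, with the error of that step beside counting error.

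Log2(value + 1) was tested with limma 3.58.1 in R 4.3.3 (mean-variance trend, no covariate, mean of at least 10), adjusted by Benjamini-Hochberg, and single genes by exact permutation. Relations with Atf4 used 100000 permutations over all lines, without regard to diet. Other steps ran in Python 3.11.15 (scipy 1.17.1, pandas 2.3.3, numpy 2.4.6, matplotlib 3.10.9). The methods were tested on simulated data. Alternatives were pseudocounts of 0.1, 0.5 and 10, no filter on low values or a minimum mean of 100, quantile normalization, equal line totals, no trend, robust eBayes, array weights, depth as a covariate, leaving out both lines with low Y-linked values, and each line left out in turn.

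The genes named are the 9 enzymes, Atf4, Mthfd2l and Aldh1l1, up to 6 genes per list with a limma p under 0.05, and the 5 genes (mean of at least 100) most correlated with the mean pattern of the enzymes. Fpgs, Myc, Slc7a5, Slc7a11 and Slc7a3 were named after their values were seen. The enzymes and lists were chosen with earlier results of these data known, and the motifs other than the C/EBP-ATF core after seeing the data. Promoters are from RefSeq (GRCm38.p6).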

Additional observations from a re-analysis of the deposited data

Results flagged for a closer look

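On the scale of the normalized values, no result met a criterion for a closer look. In 54 groups of 5 lines, a gap between the highest or lowest line and its neighbour above 0.71 of the range of the group was found in 0. The outcome depends on the scale. On the log2 scale of the tests, LPD line 40 lies past this limit below the other LPD lines in Sptlc1 and, narrowly, in Mthfd2.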

How the results depend on the processing

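The log2 fold changes of Phgdh, Psph and Mthfd2 kept their direction and a limma p under 0.05 in all 22 alternatives. Several of these could not move them much. Pseudocounts matter little at such values, and the filters, trend and robust settings leave the log2 fold change itself unchanged. Without LPD line 4 and NPD line 15 the exact permutation p was 0.0571 for Psph and 0.0857 for Mthfd2. Psat1 kept its direction but not its p in 11 of them, with values of 0.17 to 0.29 over the lines left out. The number of enzyme genes with a limma p under 0.05 was between 3 and 5, their median log2 fold change between 0.12 and 0.24, and the number past adjustment 0. Over all genes the count at an adjusted p under 0.1 was 0, but 1 with array weights and 0 to 40 with a line left out. It was 40 without LPD line 40, where the adjusted p of Atf4 was under 0.1, and 1 without LPD line 1, LPD line 20 or NPD line 8. The number of enzyme genes whose r with Atf4 had an adjusted p under 0.05 was 3. It was 1 after rescaling to the same total and 1 to 4 with a line left out, 1 without LPD line 1, 4 or 6 or without NPD line 21, 36 or 51. The cause was not tested.

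Signs turned for values near 0. Mthfd1 was -0.030 after rescaling and -0.032 after quantile normalization, Mthfd1l 0.049 with depth as a covariate, and r of Mthfd1l with Atf4 -0.079 after quantile normalization. With a line left out Mthfd1 ranged from -0.035 to 0.045, Mthfd1l from -0.10 to 0.026, Aldh1l1 from -0.15 to 0.24, and r of Mthfd1l with Atf4 from -0.33 to 0.44. Rescaling moved the median of all genes to -0.032, and the share of genes with an unadjusted p under 0.05 that were higher in LPD from 56.6% to 40.2%. It was 46.2% without a filter. The list of Atf4-linked genes had 4 to 12 higher genes over the alternatives, 4 without LPD line 4 and NPD line 15. The lower count of the other folate genes was 1 or 2 instead of 0 in 7 of the 22 alternatives, 1 after rescaling and 2 without LPD line 20. That of purine and thymidylate synthesis was 1 or 2 in 3, that of the methionine cycle 1 in 1, and the higher count of the carriers 1 in 3. The count of 1 higher gene of serine or glycine use was 0 in 10. Without LPD line 6 and NPD lines 8 and 15, 1 gene passed adjustment over all genes, and 4 enzyme genes had an r with Atf4 that passed, which then held Psat1 and Mthfd1 but not Psph. No paired analysis was possible because the diets share no line number. Depth limits Aldh1l2, Aldh1l1 and Mthfd2l, which had 10.3 to 50.5 read equivalents in LPD line 4.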

Other observations

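The genes listed as upstream regulators of serine synthesis included the kinases of the integrated stress response, Myc and Mycn, and chromatin enzymes. Of 12 tested, 1 was higher (Atf4) and 1 lower (Ehmt2) at a limma p under 0.05, and the median log2 fold change was -0.05. Ehmt2, the histone methyltransferase G9a, had a normalized value of 2103, 2182, 1996, 2377 and 2157 in LPD lines 1, 4, 6, 20 and 40, and 2473, 2534, 2197, 2855 and 2379 in NPD lines 8, 15, 21, 36 and 51. LPD lines other than 20 were below all NPD lines, and LPD line 20 was above NPD line 21. The log2 fold change was -0.20 (SE 0.09, limma p = 0.0377, adjusted p = 0.982, exact permutation p = 0.0159), and it lost a limma p under 0.05 in 10 of 22 alternatives. Myc had the highest log2 fold change of the list, 0.49 (SE 0.42, limma p = 0.269, exact permutation p = 0.397).

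The pattern of the 9 enzyme genes over the 10 lines, taken as the mean of their centred log2 values, was compared with 10447 genes as a description. The highest Pearson r was that of Pld2, a phospholipase (0.90), followed by Pigt (0.88), Fam204a (0.87), Asl (0.86) and Mrpl1 (0.84), while Atf4 was at place 59 with 0.71. Aldh1l2, a low gene with high values in NPD lines 21 and 51, carries much of this mean. Without it, an alternative chosen after seeing the data, the order was Fam204a (0.94), Atf4 (0.93), Zfp867 (0.92), Golph3 (0.91) and Hsdl1 (0.90). Of these, the phosphoinositide-binding Golgi protein Golph3 had a normalized value of 2033 ± 212 in LPD and 1572 ± 67.5 in NPD lines (SD, n = 5 each). Zfp867 had 201 ± 30.1 and 123 ± 21.7 in the same order. Both genes were chosen for following a pattern that runs higher in LPD lines, so these values are a description and no test of diet.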
